A study of Mus musculus with 21 samples.

Results

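The effect of repeated airway exposure to lipopolysaccharide (LPS) was compared between lung tumours and normal lung. The quantity followed is an interaction: the log2 change with LPS in tumours (NNK + LPS against NNK) minus the log2 change with LPS in lung (LPS against Control). It rests on 12 libraries of the 21 in the series, the 3 of each of these 4 groups. All mice were female A/J mice, a strain prone to lung tumours, sampled at 22 weeks. NNK, a carcinogen formed from nicotine in tobacco, was given as 1 intraperitoneal dose of 100 mg/kg in 0.1 ml saline, and mice not given NNK received its vehicle. LPS, an outer membrane component of Gram-negative bacteria, was instilled into the nose 1 time a week at 5 µg per mouse in 50 µL, from 1 week after NNK until the end. The groups are named Control (vehicle), LPS (vehicle and LPS), NNK, and NNK_LPS (NNK and LPS). For NNK and NNK_LPS, tumours were dissected from 3 mice and pooled for RNA, while Control and LPS are normal lung, so that tumour tissue and treatment with NNK cannot be told apart. Whether 3 libraries of 1 group stand for 3 different mice is not stated, and p-values therefore measure the spread between libraries, which may be technical.

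LPS is bound by CD14 and recognised by TLR4 with MD-2, whose adaptor MyD88 leads to NF-kB and to transcription of cytokines and chemokines. A second branch leads to type I interferon and, through it, to interferon-stimulated genes. Macrophages and the airway epithelium are the first to meet inhaled LPS, and the chemokines they release draw neutrophils and monocytes into the airspaces. Tumours that arise in A/J mice after NNK are epithelial adenomas and carcinomas that often resemble alveolar type 2 cells, the surfactant-producing cells of the alveolus. A negative interaction (called lower here) means that the change with LPS was more negative in tumours than in lung. A positive interaction (called higher) means that it was more positive in tumours. Neither says by itself in which tissue a gene changed, so the change in each tissue is given beside it. Levels are CPM, the usual depth-scaled count unit, on the normalised library size. The ± value is an approximate standard error, the absolute log2 value divided by the square root of its test's F statistic. It restates the p-value, with 3 libraries a group and spread fitted over all 21 libraries, and is unreliable at low counts.

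Total counts ranged from 13.3 to 17.5 M, with NNK_LPS deepest (15.7 to 17.5 M) and the other 3 groups between 13.3 and 15.7 M. On the first principal component of the 12 libraries (56.6% of the variance), LPS libraries lay between 79.8 and 84.3, NNK_LPS libraries between -7.02 and 13.2, NNK libraries between -35.2 and -17.7, and Control libraries between -60.9 and -45.5. The 4 groups did not overlap there. Counts of mt-Atp8, divided by those of its mitochondrial neighbour mt-Atp6, gave a ratio of 0.0206 to 0.0236 in Control, NNK, LPS 1 and LPS 2, which carry the first 8 title numbers. It was 0.0782 to 0.0876 in the next 8 titles, among them LPS 3 and all NNK_LPS libraries. The labels name no such sets, but the split moves with the comparison, because every NNK_LPS library is in the second set and no set holds all 4 groups. Each result was therefore also computed with a term for library set, in which LPS 3 is the only LPS library that shares a set with NNK_LPS. The shift between these sets is estimated from LPS 3 against LPS 1 and LPS 2 alone, so it cannot be told apart from a trait of LPS 3. Both fits use the same libraries, and agreement between them is not independent evidence. The part of library set in the results was not tested beyond that. Markers of alveolar type 2 cells were high in every library, with Sftpc (surfactant protein C) at 6208 to 36179 CPM. Summed levels of 11 heart muscle genes were 581 to 613 CPM in Control, 125 to 278 in NNK, 108 to 156 in LPS and 89.7 to 171 in NNK_LPS, and no gene of that list is read as lung tissue here.

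The change with LPS differed between tumours and lung for 3955 of 15770 genes tested (25.1%) at an adjusted p under 0.05 by edgeR's quasi-likelihood test. The interaction was lower for 2265 genes (14.4%) and higher for 1690 (10.7%). List counts given below stand against these shares, and a count near them is not read as a trait of its list. With a difference of at least 2-fold there were 1621 genes (10.3%), 1111 lower (7.05%) and 510 higher (3.23%) genes. At a log2 difference of 3 or more in size, 255 of 270 genes were lower. The median interaction over all genes was 0.03, with a median change of -0.02 in lung and 0.01 in tumours. In bulk tissue, fewer cells of a type and less RNA per cell cannot be told apart. Gene lists share members, such as Ccl5, Cxcr2, Cd274 and Bst2, so their counts are not separate observations.

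The lung arm carried most of these calls. LPS against Control called 7890 genes (50%), 3993 higher (25.3%) and 3897 lower (24.7%). NNK_LPS against NNK called 15 genes (0.0951%), 10 higher (0.0634%) and 5 lower (0.0317%), while 2517 genes had an unadjusted p under 0.05 there. Among the 3955 genes, 2184 were called as risen in lung and not called in tumours, and 1601 as fallen in lung and not called in tumours. A further 163 genes were called in neither arm, and the other 7 are described at the end. Both arms enter the interaction, so these counts describe it and are not separate evidence. A gene not called in tumours is not shown to be unchanged there, because the count of 15 is unstable. It was 492 with DESeq2 and 353 in a fit to the 12 libraries alone. With order within the group as a block it was 37, after thinning to equal depth 23, and with the term for library set 0. Without a single library it was 223 (NNK_LPS 3), 63 (LPS 3), 8 (NNK_LPS 1), 2 (NNK 1), 1 (NNK 3), 1 (NNK_LPS 2) and 0 (NNK 2).

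**Figure D1:**
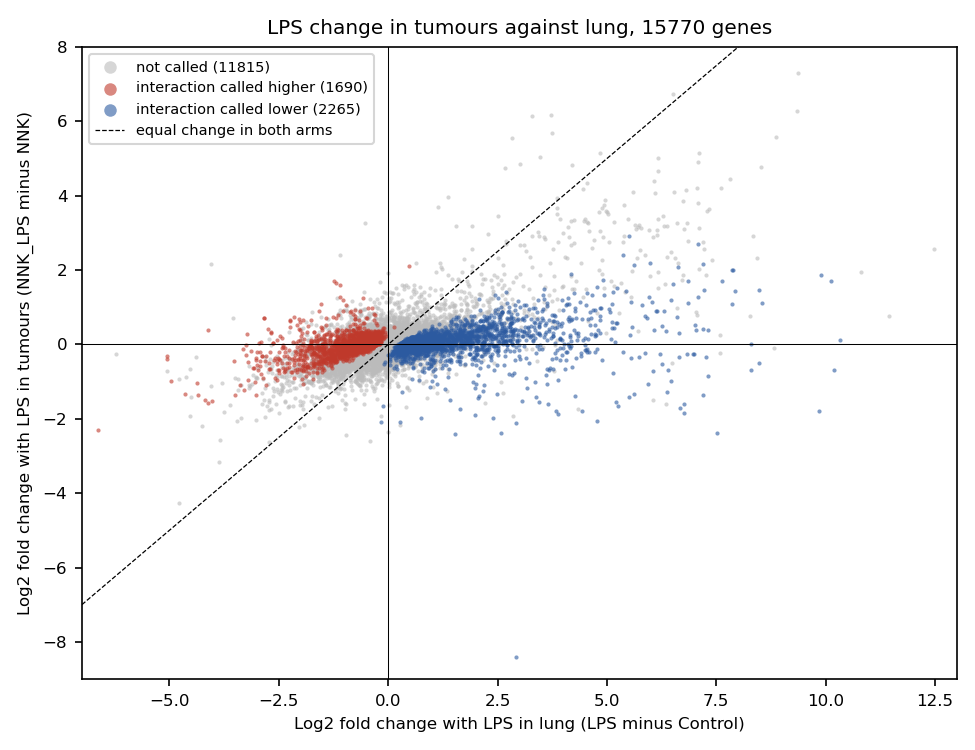
Each point is 1 of 15770 genes, with its log2 fold change with LPS in lung (x axis) and in tumours (y axis), and colour marks genes called in the interaction. Genes called lower (2265, blue) spread to the right along the x axis and genes called higher (1690, red) to the left. The vertical distance from the dashed line of equal change is the interaction itself, so called genes lie off the line by selection. Of the 3955 called genes, 1621 differed by at least 2-fold, and the others lie closer to the line.

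With the term for library set, 3005 genes (19.1%) were called in the interaction, 1830 lower (11.6%) and 1175 higher (7.45%). Of the 3955 genes, 2778 were called there too, all 2778 in the same direction. Where a named gene was called and then missed the threshold with this term, its adjusted p with the term is given.

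**Figure D2:**
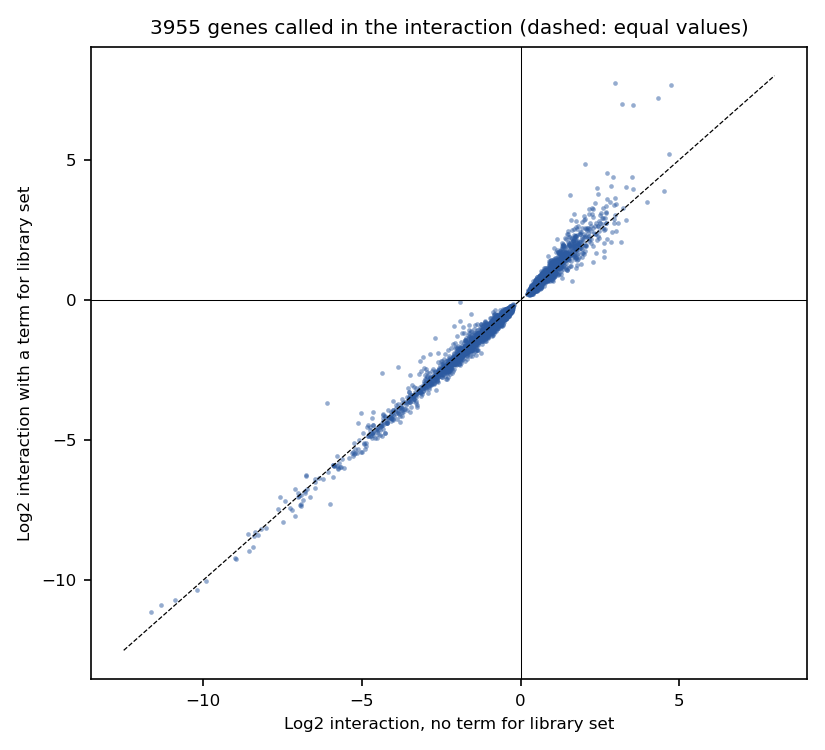
The log2 interaction of the 3955 called genes is plotted without (x axis) and with (y axis) a term for library set, and the dashed line marks equal values. The points follow the line, with more spread among positive values, and 2778 of the 3955 genes were also called with the term.

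**Figure D3:**
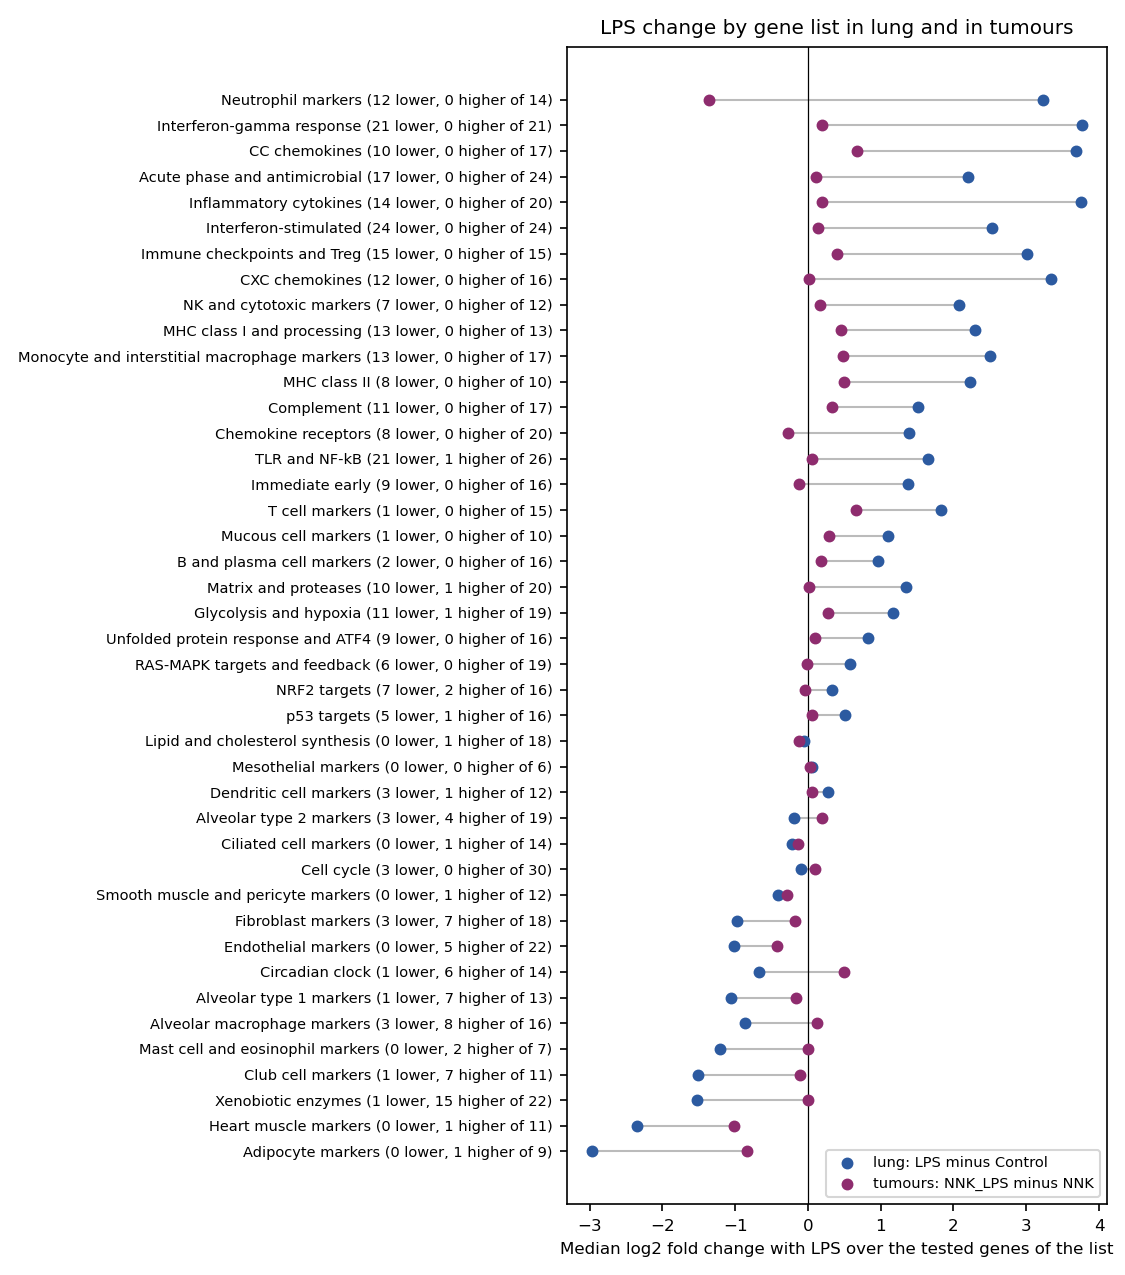
For each gene list, points give the median log2 fold change with LPS over its tested genes in lung (blue) and in tumours (purple), with the numbers called lower and higher in the interaction in brackets. Medians in lung reach 3.77 for interferon gamma response genes (0.19 in tumours), CC chemokines run from 3.69 in lung to 0.68 in tumours and neutrophil markers from 3.23 to -1.36, while alveolar macrophage markers lie at -0.86 in lung and 0.12 in tumours.

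Promoter sequence of the reference genome gives context for the lower genes, since NF-kB and interferon-activated factors bind short DNA motifs near gene starts. Letters were searched on both strands in the 250 bases before the start of each gene in RefSeq's promoters (build GRCm38.p6; the reference strain is not A/J). The letters were GGG, any 2 bases and TTTCC for NF-kB. For the interferon response element they were GAAA, any 2 bases and GAAA, and for the gamma-activated site TTC, any 3 bases and GAA. Promoters were matched for 1765 of the 2265 lower genes, 1301 of the 1690 higher genes and 11952 genes tested. NF-kB letters were in 3.51% of promoters of lower genes, 1.46% of those of higher genes, 1.77% of all tested and 1.41% of all 32851 windows. Interferon response letters were in 6.40%, 2.84%, 3.34% and 2.98% of the same 4 groups. Gamma-activated site letters were in 8.95%, 6.46%, 7.40% and 7.02%. These shares are a description of letters and not of bound factors, and a promoter may hold more than 1 motif or overlapping copies.

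The promoters of 4 lower genes are shown, because they carry the letters close to the start of genes described below. They were chosen after letters and values were seen. Cxcl3 (chr5:90785851-90786100, plus strand) encodes a neutrophil-attracting chemokine and Ubd (chr17:37193642-37193891, plus strand) a ubiquitin-like modifier induced by TNF and interferon gamma. Isg15 (chr4:156200819-156201068, minus strand) encodes an interferon-induced ubiquitin-like protein and Gbp2 (chr3:142620413-142620662, plus strand) a guanylate-binding protein. Capitals mark NF-kB letters in the first 2 sequences and interferon response letters in the other 2.
Cxcl3: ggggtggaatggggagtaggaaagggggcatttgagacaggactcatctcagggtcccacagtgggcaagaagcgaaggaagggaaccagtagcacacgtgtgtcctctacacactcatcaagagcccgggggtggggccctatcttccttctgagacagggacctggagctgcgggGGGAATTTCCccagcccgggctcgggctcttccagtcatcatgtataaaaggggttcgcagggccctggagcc
Ubd: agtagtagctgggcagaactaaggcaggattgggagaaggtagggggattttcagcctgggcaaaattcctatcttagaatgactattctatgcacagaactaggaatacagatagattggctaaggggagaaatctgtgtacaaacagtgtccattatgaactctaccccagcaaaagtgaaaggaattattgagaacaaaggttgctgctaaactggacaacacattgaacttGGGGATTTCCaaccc
Isg15: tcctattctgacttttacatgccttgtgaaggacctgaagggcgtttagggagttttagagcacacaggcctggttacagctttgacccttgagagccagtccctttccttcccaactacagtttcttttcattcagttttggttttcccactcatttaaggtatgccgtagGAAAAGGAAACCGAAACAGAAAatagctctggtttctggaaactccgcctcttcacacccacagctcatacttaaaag
Gbp2: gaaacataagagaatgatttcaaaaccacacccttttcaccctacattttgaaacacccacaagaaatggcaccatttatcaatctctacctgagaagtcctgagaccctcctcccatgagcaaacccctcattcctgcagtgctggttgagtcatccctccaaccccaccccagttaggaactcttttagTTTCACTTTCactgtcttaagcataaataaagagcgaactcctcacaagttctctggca
The NF-kB match lay 73 to 64 bases before the start of Cxcl3 and 15 to 6 bases before that of Ubd. Isg15 held 3 overlapping interferon response matches in the run from 78 to 57 bases before its start. In Gbp2 the match lay on the opposite strand, 59 to 50 bases before the start. The 4 windows held no further match to the 3 motifs.

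Cytokine genes that LPS raised in lung were among the lower genes. In the list of inflammatory cytokines 14 of 20 tested genes were lower and 0 higher, and the median interaction was -2.999, from medians of 3.75 in lung and 0.20 in tumours. Il1b (chr2:129364570-129371139), the pyrogenic cytokine of the inflammasome, was at 6.60, 5.87 and 9.55 CPM in Control, 18.1, 29.2 and 15.4 in NNK, 488, 408 and 459 in LPS and 11.7, 7.74 and 10.2 in NNK_LPS. Every LPS library was above all others by more than 10 times, and the NNK_LPS libraries lay below the NNK libraries. The interaction was -7.01 ± 0.59 (adjusted p = 2.07e-06), from 5.94 in lung and -1.07 in tumours. Il1rn, the IL-1 receptor antagonist, was at 12.5, 11.0 and 13.0 CPM in Control, 20.7, 18.5 and 19.5 in NNK, 632, 512 and 564 in LPS and 20.0, 13.6 and 11.8 in NNK_LPS. Again the LPS libraries alone were high, and NNK_LPS overlapped NNK; the interaction was -5.92 ± 0.35 (adjusted p = 4.41e-08). Interactions were -4.27 ± 0.43 for Il1a (an alarmin of the same family), -8.35 ± 0.84 for Il1f9 (IL-36 gamma), -5.25 ± 0.95 for Tnf and -3.53 ± 0.46 for Osm (oncostatin M, of the IL-6 family). Il33, Il18 and Tslp, alarmins of epithelial cells, were not called, with interactions of 0.44, 0.94 and 0.98 and adjusted p of 0.356, 0.0518 and 0.145. Il10 and Il17a were not called either, at -2.44 ± 1.82 and -7.50 ± 3.16 (adjusted p = 0.353 and 0.0966). Csf3 was also not called, and no fold is given because its standard error was too large. With the set term 13 cytokine genes were lower and 1 higher: Il12b at -1.997 ± 0.69 (adjusted p = 0.0433) was no longer called (adjusted p = 0.291), and Il18, not called without the term, was called higher (adjusted p = 0.0167).

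Of CXC chemokines, 12 of 16 tested genes were lower and 0 higher, and the median interaction was -2.32, from medians of 3.34 in lung and 0.02 in tumours. Cxcl9 (chr5:92321347-92328079), a ligand of CXCR3 that draws T cells and is induced by interferon gamma, was at 1.14, 0.958 and 1.16 CPM in Control, 5.75, 2.05 and 18.4 in NNK, 1106, 860.3 and 1121 in LPS and 45.4, 22.3 and 27.5 in NNK_LPS. All NNK_LPS libraries were above all NNK libraries, yet more than 10 times below every LPS library. Its interaction was -8.03 ± 1.32 (adjusted p = 0.000423), from 9.88 in lung and 1.86 in tumours, and the change in tumours was not called (adjusted p = 0.265). Cxcl3 (chr5:90786103-90789600), whose promoter is printed above, was at 0.303, 0.383 and 0.0646 CPM in Control, 0.267, 0.410 and 2.76 in NNK, 79.1, 72.7 and 86.9 in LPS and 1.13, 0.787 and 1.54 in NNK_LPS. Its NNK_LPS libraries lay within the range of NNK, and only the LPS libraries were high; the interaction was -8.27 ± 1.52 (adjusted p = 0.00101). Among other ligands of the neutrophil receptor CXCR2, interactions were -6.79 ± 1.17 for Cxcl2 and -6.92 ± 1.26 for Cxcl5. Ppbp, also a ligand of CXCR2, was not called and lay on the other side, at 1.64 ± 0.65 (adjusted p = 0.0744). Cxcl11, another CXCR3 ligand, had summed counts of 0 in Control, 4 in NNK, 282 in LPS and 1 in NNK_LPS, so no fold is given, and its call was lost without NNK 3 (adjusted p = 1.000). Cxcl12 and Cxcl15 were not called, at -0.46 and 0.22 (adjusted p = 0.255 and 0.675).

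Of CC chemokines, 10 of 17 tested genes were lower and 0 higher, and the median interaction was -3.28, from medians of 3.69 in lung and 0.68 in tumours. Ccl4, a chemokine of macrophages and lymphocytes, was at 0.228, 0.192 and 0.452 CPM in Control, 0.401, 0.478 and 1.25 in NNK, 116, 124 and 94.9 in LPS and 1.51, 0.787 and 2.33 in NNK_LPS. LPS libraries stood above 90 CPM and every other library below 3 CPM. The interaction of Ccl4 was -7.42 ± 1.10 (adjusted p = 0.000167); those of Ccl3 and Ccl5, which also draw leukocytes, were -5.73 ± 0.71 and -3.90 ± 0.59. Ccl17 and Ccl22, ligands of CCR4, were not called (-0.22 and -0.55, adjusted p = 0.897 and 0.536). Of chemokine receptors, 8 of 20 tested genes were lower and 0 higher, and the median interaction was -1.59, from medians of 1.39 in lung and -0.28 in tumours. Cxcr2, the neutrophil receptor, was at 2.43, 2.17 and 6.39 CPM in Control, 28.9, 34.0 and 6.11 in NNK, 46.4, 36.9 and 55.0 in LPS and 12.3, 8.20 and 2.45 in NNK_LPS. Here NNK libraries were themselves above Control except for NNK 3, and NNK_LPS overlapped NNK at its low end. The interaction was -5.24 ± 1.05 (adjusted p = 0.00188). Ccr1, on monocytes and neutrophils, had an interaction of -3.31 ± 0.45. Without NNK 3, 5 receptors were lower in place of 8. Under the set term, 10 CXC, 10 CC and 6 receptor genes were lower, and 0 higher.

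The receptors of LPS and the NF-kB pathway differed less in size. In this list 21 of 26 tested genes were lower and 1 higher, and the median interaction was -1.53, from medians of 1.66 in lung and 0.06 in tumours. Cd14, which hands LPS to TLR4, was at 29.9, 27.3 and 33.6 CPM in Control, 61.7, 40.2 and 75.9 in NNK, 564, 547 and 667 in LPS and 100.3, 72.7 and 48.5 in NNK_LPS. LPS libraries were at least 5 times above all others, and NNK_LPS overlapped NNK. Its interaction was -3.98 ± 0.52 (adjusted p = 6.22e-05), from 4.29 in lung and 0.32 in tumours. Tlr4 itself was at 43.6, 46.2 and 38.5 CPM in Control, 46.9, 44.6 and 45.4 in NNK, 74.0, 62.2 and 67.8 in LPS and 47.6, 54.0 and 40.4 in NNK_LPS, with LPS libraries above all others and no separation of NNK_LPS from NNK, and an interaction of -0.62 ± 0.14 (adjusted p = 0.00361). Ly96 (MD-2) had an interaction of -1.43 ± 0.44 (adjusted p = 0.0251) at levels of 0.834 to 5.05 CPM. The adaptor gene Myd88 was at -1.26 ± 0.15 and Tlr2, a receptor for lipoproteins, at -2.41 ± 0.25. Inhibitors of the pathway were lower as well, with -3.07 ± 0.49 for Tnfaip3 (A20), -1.53 ± 0.38 for Nfkbia (IkB alpha) and -2.55 ± 0.35 for Irak3 (a brake on IRAK signalling). Tlr5, the flagellin receptor, was the higher gene of the list, at 0.79 ± 0.19 (adjusted p = 0.00522): its levels were 18.3, 18.7 and 22.3 CPM in Control, 17.7, 18.8 and 18.7 in NNK, 9.03, 9.69 and 8.96 in LPS and 13.4, 13.6 and 17.4 in NNK_LPS, and the LPS libraries were the lowest. With the set term 19 genes were lower and 1 higher.

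Interferon-stimulated genes were lower without exception in the list used: 24 of 24 tested genes were lower and 0 higher, and the median interaction was -2.66, from medians of 2.53 in lung and 0.14 in tumours. Oas1a, a sensor of double-stranded RNA, was at 9.56, 9.45 and 12.7 CPM in Control, 11.2, 14.4 and 19.5 in NNK, 134, 114 and 115 in LPS and 28.3, 20.1 and 25.2 in NNK_LPS. LPS libraries were above 110 CPM, and NNK_LPS libraries lay just above the NNK libraries. The interaction was -2.81 ± 0.34 (adjusted p = 2.96e-05), from 3.51 and 0.70. Bst2 (tetherin, which holds virions at the cell surface), Stat2 and Ifih1 (a cytosolic RNA sensor) had interactions of -2.23 ± 0.22, -1.73 ± 0.21 and -1.18 ± 0.17. Isg15, whose promoter is printed above, was at -4.08 ± 0.64. Of interferon gamma response genes, 21 of 21 tested genes were lower and 0 higher, and the median interaction was -3.39, from medians of 3.77 in lung and 0.19 in tumours. Irg1 (chr14:103046977-103056573; also named Acod1), which makes the metabolite itaconate in activated macrophages, was at 0.759, 0.0638 and 0.581 CPM in Control, 1.94, 2.26 and 2.30 in NNK, 690.1, 451 and 478 in LPS and 2.45, 0.984 and 0.626 in NNK_LPS. The LPS libraries exceeded 450 CPM and no other library reached 3 CPM. Its interaction was -10.89 ± 1.42 (adjusted p = 6.32e-05), from 10.20 in lung and -0.69 in tumours. Nos2, the inducible nitric oxide synthase, was at 12.7, 15.4 and 19.6 CPM in Control, 9.16, 13.0 and 13.7 in NNK, 609, 405 and 620.2 in LPS and 10.8, 8.33 and 20.7 in NNK_LPS; NNK_LPS, NNK and Control overlapped, and its interaction was -4.93 ± 0.52 (adjusted p = 1.04e-05). The transcription factor Irf1 was at -1.92 ± 0.27 and Gbp2 at -3.56 ± 0.50. Ubd (chr17:37193892-37196095) was at 0.152, 0.0638 and 0.452 CPM in Control, 1.00, 0.478 and 20.0 in NNK, 296, 262 and 332 in LPS and 15.2, 2.82 and 5.58 in NNK_LPS. Among tumour libraries NNK 3 was the highest and NNK_LPS lay between it and the other NNK libraries; the interaction of -10.19 ± 2.29 (adjusted p = 0.00430) was not called without NNK 3 (adjusted p = 0.180). Under the set term, 22 interferon-stimulated and 20 interferon gamma response genes were lower and 0 higher.

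Genes of antigen presentation shared this direction at smaller size. Of MHC class I and processing genes, 13 of 13 tested genes were lower and 0 higher, and the median interaction was -1.90, from medians of 2.30 in lung and 0.46 in tumours. H2-D1, a classical class I heavy chain, was at 724, 666 and 914 CPM in Control, 1218, 1406 and 1625 in NNK, 3313, 3842 and 4157 in LPS and 2320.1, 1939.5 and 1949 in NNK_LPS. The 4 groups did not overlap: levels ran from Control through NNK and NNK_LPS to LPS. The interaction was -1.75 ± 0.22 (adjusted p = 3.73e-05), from 2.30 in lung and 0.55 in tumours. Tapbp (tapasin, which loads peptide) was at -2.11 ± 0.19 and Psme2, an activator of the proteasome, at -1.90 ± 0.20. Of MHC class II genes, 8 of 10 tested genes were lower and 0 higher, and the median interaction was -1.64, from medians of 2.23 in lung and 0.50 in tumours. Cd74, the invariant chain, was at 811, 821 and 1146 CPM in Control, 1891, 1902 and 2457 in NNK, 3679, 4174 and 4567 in LPS and 3191, 2604 and 2321 in NNK_LPS. NNK_LPS was above Control, overlapped NNK and lay below LPS; the interaction was -1.78 ± 0.26 (adjusted p = 0.000132). H2-Ab1 and H2-DMa had interactions of -1.83 ± 0.29 and -2.18 ± 0.28. H2 genes are near-identical to one another and vary between strains, and reads of A/J mice were placed on a build of another strain, so the split of counts among them is uncertain. With the set term 13 class I genes and 8 class II genes were lower.

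In the list of immune checkpoints and regulatory T cell genes 15 of 15 tested genes were lower and 0 higher, and the median interaction was -2.61, from medians of 3.01 in lung and 0.40 in tumours. Cd274 (PD-L1, the ligand of the inhibitory receptor PD-1) was at 31.9, 30.7 and 51.3 CPM in Control, 39.6, 57.3 and 75.3 in NNK, 736, 444 and 610.4 in LPS and 88.9, 79.0 and 90.3 in NNK_LPS. LPS libraries were above 440 CPM, and NNK_LPS libraries lay above all NNK libraries by little. Its interaction was -3.39 ± 0.43 (adjusted p = 4.35e-05), from 3.97 and 0.58. Ctla4, an inhibitory receptor of T cells, was at 0.834, 0.575 and 0.775 CPM in Control, 2.27, 1.50 and 4.21 in NNK, 16.5, 17.3 and 19.4 in LPS and 5.10, 3.02 and 3.30 in NNK_LPS; LPS was above 16 CPM, and NNK_LPS lay within NNK or just above it. Interactions were -4.09 ± 0.72 (adjusted p = 0.000598) for Ctla4, -2.30 ± 0.41 for Il2ra (a chain of the IL-2 receptor), -3.79 ± 0.83 for Foxp3 (the regulator of regulatory T cells) and -2.31 ± 0.37 for Cd80 (a ligand of CTLA-4 and CD28). With the set term, 14 of the 15 were lower.

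**Figure D4:**
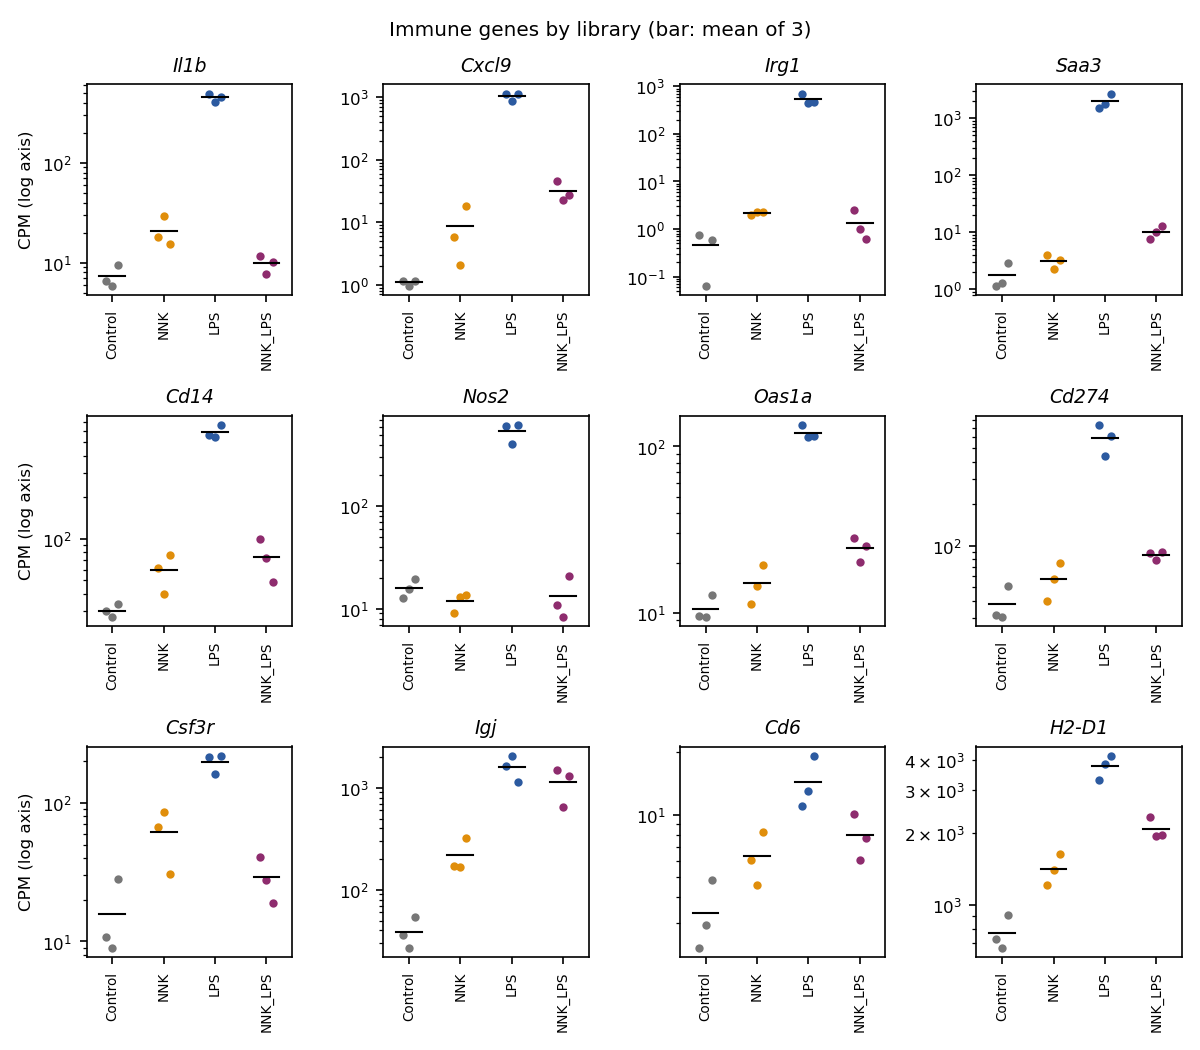
Points are the CPM of 12 immune genes in each of the 3 libraries of Control, NNK, LPS and NNK_LPS (log axes, which differ between panels), and bars mark means. LPS libraries are the highest in every panel except Igj, where NNK_LPS overlaps LPS.

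Acute phase genes were lower too, and Orm2 and Saa3 were among the 12 named genes with the most negative interactions. Of this list 17 of 24 tested genes were lower and 0 higher, and the median interaction was -3.05, from medians of 2.20 in lung and 0.11 in tumours. Saa3 (chr7:46711998-46715700), a serum amyloid A made in inflamed lung, was at 1.14, 1.28 and 2.84 CPM in Control, 3.88, 2.26 and 3.29 in NNK, 1526, 1771 and 2628 in LPS and 7.62, 10.0 and 13.0 in NNK_LPS. NNK_LPS libraries were all above NNK libraries and more than 100 times below LPS libraries. Its interaction was -8.42 ± 1.35 (adjusted p = 0.000355), from 10.12 in lung and 1.70 in tumours (not called, adjusted p = 0.364). Orm2 (chr4:63362449-63365878), an orosomucoid, was at 0.0759, 0.0638 and 0.129 CPM in Control, 0.401, 0.342 and 0.460 in NNK, 25.4, 30.8 and 35.4 in LPS and 0.315, 0.262 and 0.171 in NNK_LPS. Its interaction was -8.98 ± 0.86 (adjusted p = 4.05e-06), but summed counts in Control were 4, so its size is uncertain. Orm1 and Orm2 are close paralogs, and their counts may share reads. Lcn2 (lipocalin 2, which binds bacterial siderophores) was at 104, 70.4 and 93.2 CPM in Control, 462, 205 and 500.3 in NNK, 3506, 3699.7 and 5126 in LPS and 579.7, 469 and 356 in NNK_LPS. NNK libraries were above Control, NNK_LPS overlapped NNK, and LPS libraries were the highest; the interaction was -5.26 ± 0.57 (adjusted p = 1.28e-05). Pigr, which carries IgA across the epithelium, was at -1.95 ± 0.39. Bpifa1, an antimicrobial protein of the airway, was not called at 2.87 ± 1.83 (adjusted p = 0.274). Of complement genes 11 of 17 tested genes were lower and 0 higher, and the median interaction was -1.62, from medians of 1.52 in lung and 0.33 in tumours. Cfb, a protease of the alternative pathway, was at 73.2, 70.6 and 66.3 CPM in Control, 83.4, 85.0 and 101 in NNK, 2325, 2214 and 2799.8 in LPS and 163, 109.6 and 138 in NNK_LPS, with an interaction of -4.52 ± 0.51 (adjusted p = 1.83e-05): all NNK_LPS libraries were above NNK libraries and all LPS libraries far above both. C3, the central component, was at -1.69 ± 0.36, and the inhibitor Cd55 was not called (0.17, adjusted p = 0.552). Under the set term, 13 acute phase and 9 complement genes were lower.

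Neutrophil markers had the most negative median of the lists used. 12 of 14 tested genes were lower and 0 higher, and the median interaction was -4.65, from medians of 3.23 in lung and -1.36 in tumours. Summed over the list, levels were 231 to 304 CPM in Control, 401 to 847 in NNK, 1215 to 1524 in LPS and 330.4 to 592 in NNK_LPS. Csf3r, the receptor of the granulocyte growth factor, was at 10.7, 9.00 and 28.0 CPM in Control, 67.1, 86.0 and 30.7 in NNK, 214, 161 and 218 in LPS and 41.0, 27.6 and 19.0 in NNK_LPS. LPS was highest, NNK libraries were above all Control libraries, and NNK_LPS overlapped NNK and Control. The interaction was -4.70 ± 0.68 (adjusted p = 0.000151), from 3.63 in lung and -1.07 in tumours (not called, adjusted p = 0.271). Trem1, an amplifier of myeloid inflammation, was at 4.40, 3.77 and 4.26 CPM in Control, 11.8, 10.0 and 4.40 in NNK, 43.1, 42.2 and 45.0 in LPS and 5.04, 3.48 and 1.31 in NNK_LPS, with 2 NNK libraries above Control and NNK_LPS, and an interaction of -4.82 ± 0.76 (adjusted p = 0.000262). Mmp9 (gelatinase B, stored in neutrophil granules) and Il1r2 (a decoy IL-1 receptor) were at -4.59 ± 0.82 and -6.95 ± 1.21. Mrgpra2b had summed counts of 3 in Control, 73 in NNK, 596 in LPS and 15 in NNK_LPS; it is 1 of a family of near-identical receptor genes, and no fold is given. With the set term, 10 neutrophil genes were lower.

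Of monocyte and interstitial macrophage markers 13 of 17 tested genes were lower and 0 higher, and the median interaction was -1.68, from medians of 2.51 in lung and 0.48 in tumours. Summed over the list, levels were 6718 to 8238 CPM in Control and 8104 to 10720 in NNK. The sums were 11577 to 15702 CPM in LPS and 11392 to 15673 in NNK_LPS, so these groups overlapped in summed level. Itgam (CD11b, an integrin of myeloid cells) was at 17.3, 11.9 and 25.3 CPM in Control, 36.1, 41.1 and 25.8 in NNK, 287, 254 and 313 in LPS and 36.1, 25.2 and 23.8 in NNK_LPS. LPS libraries were above 250 CPM, and NNK and NNK_LPS overlapped; the interaction was -4.25 ± 0.54 (adjusted p = 5.09e-05). Cd68, a lysosomal protein of macrophages, was at 71.4, 63.6 and 74.8 CPM in Control, 120.2, 106 and 118 in NNK, 282, 349.7 and 308 in LPS and 165, 185 and 133 in NNK_LPS. The groups ran from Control through NNK and NNK_LPS to LPS without overlap, and the interaction was -1.68 ± 0.21 (adjusted p = 3.05e-05). Fcgr4, a receptor for IgG, was at -2.72 ± 0.35. Lyz2 and Ccr2 were not called (-0.21 and -1.10, adjusted p = 0.561 and 0.118). Outside the lists, Gpr84 (a receptor of medium-chain fatty acids on activated myeloid cells) was at 0, 0.0638 and 0.194 CPM in Control, 0.401, 0.342 and 0.723 in NNK, 31.8, 30.2 and 41.5 in LPS and 0.189, 0.328 and 0.512 in NNK_LPS. Its interaction was -8.96 ± 1.20 (adjusted p = 5.95e-05), on summed counts of 4 in Control, so its size is uncertain. Ly6i, of the Ly6 family with near-identical members, was at 0.607, 0.830 and 0.646 CPM in Control, 1.07, 0.820 and 14.0 in NNK, 88.2, 84.7 and 138 in LPS and 3.90, 1.25 and 1.14 in NNK_LPS, where NNK 3 stood above the other tumour libraries, with -8.55 ± 1.74 (adjusted p = 0.00214).

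Lymphocyte genes separated less clearly, and their counts stand beside 14.4% lower and 10.7% higher over all genes tested. Of natural killer and cytotoxic markers 7 of 12 tested genes were lower and 0 higher, and the median interaction was -2.22, from medians of 2.08 in lung and 0.16 in tumours. Klrk1 (NKG2D, an activating receptor) was at 1.82, 2.04 and 4.33 CPM in Control, 2.94, 3.14 and 6.31 in NNK, 31.0, 19.8 and 26.7 in LPS and 7.74, 3.15 and 5.18 in NNK_LPS, with LPS above 19 CPM, NNK_LPS overlapping NNK, and an interaction of -2.86 ± 0.59 (adjusted p = 0.00209). Gzmb, the granzyme of killer cells, was at -3.65 ± 0.83, and the count of the list was 4 without NNK 3. Of T cell markers 1 of 15 tested genes was lower and 0 higher, and the median interaction was -1.22, from medians of 1.84 in lung and 0.66 in tumours. The called gene was Cd6 at -1.76 ± 0.53 (adjusted p = 0.0232), and it was lost without any of Control 1 and 2, NNK 3, LPS 3 and NNK_LPS 2 (adjusted p = 0.0604, 0.0548, 0.0665, 0.0660 and 0.0546), while 2 genes were called without Control 3. Cd3e, a chain of the T cell receptor complex, was at -1.59 (adjusted p = 0.0606), from 2.26 in lung and 0.66 in tumours. Of B and plasma cell markers 2 of 16 tested genes were lower and 0 higher, and the median interaction was -0.94, from medians of 0.96 in lung and 0.18 in tumours. Igj, the J chain of secreted IgA and IgM, was at 36.0, 27.0 and 54.0 CPM in Control, 169, 167 and 319.6 in NNK, 1645, 2047 and 1137 in LPS and 1495, 652 and 1306 in NNK_LPS. Its NNK_LPS libraries were above all NNK libraries and overlapped LPS, which sets it apart in level from the cytokine genes above. The change was 5.37 in lung and 2.40 in tumours (not called, adjusted p = 0.0741), and the interaction of -2.97 ± 0.77 (adjusted p = 0.0102) missed the threshold with the term for library set (adjusted p = 0.0759). The count of this list was 1 to 5 when single libraries were left out, with 1 without Control 1, NNK 2, NNK 3, LPS 2 or NNK_LPS 2, 4 without LPS 3 or NNK_LPS 1, and 5 without Control 3. With the term for library set, 7 cytotoxic, 1 T cell and 0 B cell genes were lower.

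Resident macrophage genes were more often higher than lower, while summed levels of their list overlapped between LPS and Control. The sums were 1238 to 1455 CPM in Control, 1773 to 2061 in NNK, 1075 to 2313 in LPS and 1755 to 2734 in NNK_LPS. Of alveolar macrophage markers 3 of 16 tested genes were lower and 8 higher, and the median interaction was 1.01, from medians of -0.86 in lung and 0.12 in tumours. Fabp1 (chr6:71199827-71205023), a fatty acid binding protein, was at 21.7, 14.4 and 13.0 CPM in Control, 13.2, 16.2 and 9.86 in NNK, 0.502, 0.614 and 0.337 in LPS and 10.1, 11.8 and 8.25 in NNK_LPS. LPS libraries were below 0.7 CPM and all others above 8 CPM. The interaction was 4.68 ± 0.56 (adjusted p = 2.5e-05), from -5.06 in lung and -0.38 in tumours. Ear2, an eosinophil-associated ribonuclease gene with close paralogs, was at 142, 123 and 132 CPM in Control, 171, 131 and 156 in NNK, 65.9, 69.0 and 40.0 in LPS and 178, 254 and 143 in NNK_LPS. LPS libraries were the lowest, and NNK_LPS overlapped NNK at its high end, with 1.51 ± 0.40 (adjusted p = 0.0111). Pparg, the nuclear receptor that directs alveolar macrophage development, was at 1.10 ± 0.25 and Fabp4, also a fat cell gene, at 2.69 ± 0.74. Itgax (CD11c) went against the list at -1.56 ± 0.30 (adjusted p = 0.00113), as it rose in lung by 2.04. Marco at -2.36 ± 0.64 and Spp1 at -1.91 ± 0.60 were lower too. Without NNK_LPS 2 the count of higher genes was 5. Of dendritic cell markers 3 of 12 tested genes were lower and 1 higher, beside 14.4% and 10.7% of all genes tested. The median interaction of this list was -0.01 (0.08 with the term for library set). Cd209a, a C-type lectin, was the higher gene, at 14.5, 13.6 and 8.97 CPM in Control, 5.88, 8.00 and 7.95 in NNK, 1.79, 1.30 and 1.28 in LPS and 5.04, 6.62 and 2.50 in NNK_LPS: LPS libraries were below 2 CPM, and NNK_LPS overlapped NNK, with 2.45 ± 0.52 (adjusted p = 0.00256). Without NNK 2 there were 2 higher genes. Cd207 (langerin) was at 7.51, 8.49 and 8.39 CPM in Control, 5.82, 6.70 and 4.34 in NNK, 2.94, 1.64 and 0.606 in LPS and 11.0, 10.9 and 4.89 in NNK_LPS, again lowest in LPS, with 2.90 ± 0.55 (adjusted p = 0.00113). Cd209b had summed counts of 233 in Control, 107 in NNK, 2 in LPS and 23 in NNK_LPS, and its call was lost without LPS 2, LPS 3 or NNK_LPS 1 (adjusted p = 0.0592, 0.0655 and 0.0572). With the term for library set 8 alveolar macrophage genes were higher and 2 lower. Of mast cell and eosinophil markers 0 of 7 tested genes were lower and 2 higher, falling to 1 higher without any of the 3 Control libraries, NNK 1, NNK 3, LPS 1, LPS 3 or NNK_LPS 1, and the median interaction was 1.13, from medians of -1.21 in lung and -0.00 in tumours. The 2 higher genes were Tpsb2 at 1.68 ± 0.45 (adjusted p = 0.0109) and Siglec5 at 1.46 ± 0.50 (adjusted p = 0.0428). Siglec5 is also counted among the alveolar macrophage markers, and its call was lost in 13 alternative settings.

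Markers of epithelial cell types were called on both sides, as were all genes tested (14.4% lower and 10.7% higher). Club cells are secretory cells of the small airways and the main site of xenobiotic metabolism in mouse lung. Of club cell markers 1 of 11 tested genes was lower and 7 higher, and the median interaction was 1.30, from medians of -1.51 in lung and -0.11 in tumours. Cyp2f2, a cytochrome P450 of club cells, was at 4225, 3929 and 3933 CPM in Control, 1943, 2988 and 2879.5 in NNK, 1242, 1145 and 1059 in LPS and 2477, 1972 and 2899 in NNK_LPS. LPS libraries were the lowest, Control the highest, and NNK_LPS overlapped NNK. The interaction was 1.72 ± 0.22 (adjusted p = 4.33e-05), from -1.81 in lung and -0.09 in tumours. Cbr2, a carbonyl reductase, was at 4462, 4286 and 4259 CPM in Control, 2388, 3379 and 2915 in NNK, 1474, 1107 and 1242 in LPS and 2872, 3139 and 3154 in NNK_LPS in the same order, with 1.84 ± 0.19 (adjusted p = 7.08e-06). Gsta3, a glutathione transferase, and Scgb1a1, the club cell secretory protein, were at 1.63 ± 0.18 and 0.88 ± 0.27. The lower gene was Bpifb1, an antimicrobial protein of the airway, at -2.72 ± 0.91 (adjusted p = 0.0390). It missed the threshold with the term for library set (adjusted p = 0.0742) and without any of the 3 Control libraries, NNK 2, LPS 2, LPS 3, NNK_LPS 2 or NNK_LPS 3 (adjusted p of 0.0507 to 0.117). Of alveolar type 2 markers 3 of 19 tested genes were lower and 4 higher, and the median interaction was 0.05, from medians of -0.19 in lung and 0.20 in tumours. Sftpc (chr14:70520949-70524081) was at 19787, 20172 and 15661 CPM in Control, 25001, 21856 and 22977 in NNK, 9451, 9321 and 6208 in LPS and 29532, 36179 and 26165 in NNK_LPS. LPS libraries were below all Control libraries, and NNK_LPS libraries were above all NNK libraries. The interaction was 1.55 ± 0.26 (adjusted p = 0.000395), from -1.15 in lung and 0.40 in tumours (not called, adjusted p = 0.299). Sftpb, a second surfactant protein, was at 0.88 ± 0.18. The lower genes of the list were Cd74, Chi3l1 and Sftpd, and Cd74 and Chi3l1 are also made by other cells. Sftpd, the surfactant protein D gene, was named after its values were seen and was at 1216, 1078 and 963 CPM in Control, 1816, 1374 and 1723 in NNK, 2067, 2451 and 2669 in LPS and 2180.2, 2547 and 1643 in NNK_LPS. LPS libraries were above all Control libraries, and NNK_LPS overlapped both NNK and LPS. Its interaction was -0.77 ± 0.26 (adjusted p = 0.0360), from 1.14 in lung and 0.37 in tumours, opposite in sign to those of Sftpc and Sftpb, and it missed the threshold with the term for library set (adjusted p = 0.0530). Of alveolar type 1 markers 1 of 13 tested genes was lower and 7 higher, and the median interaction was 0.88, from medians of -1.05 in lung and -0.17 in tumours. Hopx, a homeodomain protein of these flat gas-exchange cells, was at 832, 835 and 702 CPM in Control, 473, 565 and 448 in NNK, 438, 349 and 357 in LPS and 385, 417 and 523 in NNK_LPS; NNK, NNK_LPS and LPS lay below Control, NNK_LPS overlapped both others, and the interaction was 0.88 ± 0.21 (adjusted p = 0.00596). Cav1, the coat protein of caveolae that endothelium also makes, was at 1.20 ± 0.30. Of ciliated cell markers 0 of 14 tested genes were lower and 1 higher (2 higher without NNK_LPS 2), and of mucous cell markers 1 of 10 tested genes was lower and 0 higher (4 lower without NNK_LPS 1 and 2 lower without Control 3). With the term for library set the higher genes numbered 6 for club, 3 for type 2 and 5 for type 1 cells.

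Enzymes that handle foreign compounds were among the higher genes. 1 of 22 tested genes was lower and 15 higher, and the median interaction was 1.36, from medians of -1.52 in lung and 0.00 in tumours. Ephx1, the microsomal epoxide hydrolase, was at 189, 193 and 181 CPM in Control, 172, 202 and 195 in NNK, 92.0, 85.5 and 77.4 in LPS and 186, 190.2 and 211 in NNK_LPS. LPS libraries were below 100 CPM, and the other 3 groups overlapped between 172 and 211 CPM. The interaction was 1.19 ± 0.12 (adjusted p = 4.64e-06), from -1.14 in lung and 0.04 in tumours. Gstm1, a glutathione transferase, was at 1.40 ± 0.20. Cyp2e1 (chr7:140763739-140774987), a P450 of small solvents, was at 8.27, 5.43 and 14.3 CPM in Control, 1.94, 4.17 and 1.51 in NNK, 1.36, 1.09 and 0.539 in LPS and 4.09, 3.08 and 2.16 in NNK_LPS, where NNK_LPS overlapped NNK and LPS libraries were the lowest, with 3.52 ± 0.61 (adjusted p = 0.000525). Cyp4a12b (chr4:115411624-115439034), a fatty acid hydroxylase with a near-identical neighbour, was at 4.85, 6.26 and 7.23 CPM in Control, 4.55, 5.81 and 5.00 in NNK, 0.143, 0.341 and 0.539 in LPS and 5.85, 8.79 and 5.58 in NNK_LPS, with 4.52 ± 0.71 (adjusted p = 0.000217). Cyp2a5, an enzyme that activates NNK in mouse, was not called at 1.75 ± 0.89 (adjusted p = 0.166), and neither was Cyp1a1 at 4.26 ± 1.53 (adjusted p = 0.0519). Cyp1b1, which is inducible by inflammation as well as by the Ah receptor, was lower at -1.97 ± 0.46 (adjusted p = 0.00496). With the term for library set 12 of the 22 enzymes were higher and 1 lower.

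**Figure D5:**
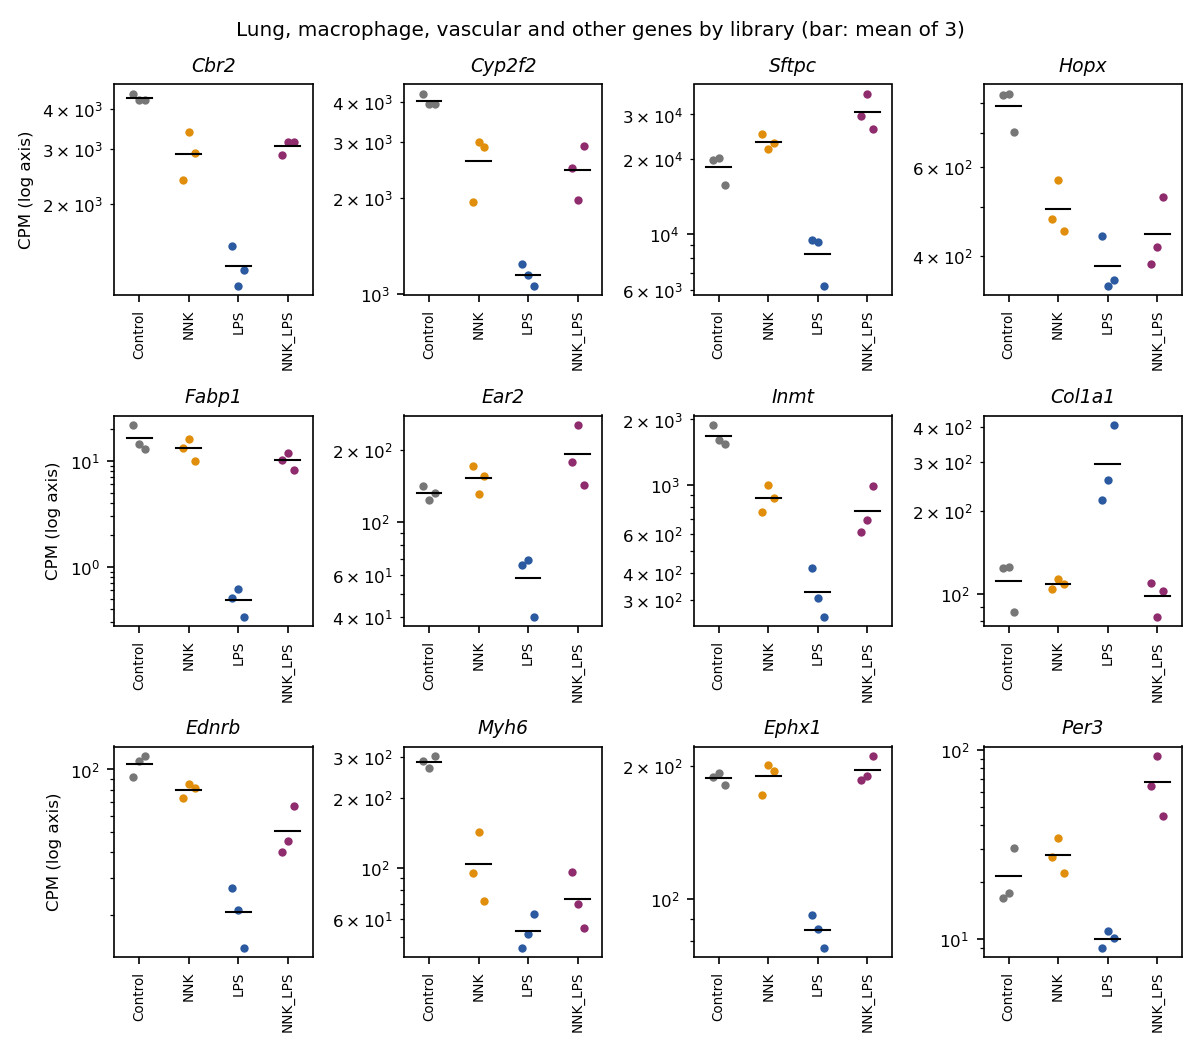
Points are the CPM of 12 genes of epithelium, macrophages, vessels, stroma, heart and the clock in the 3 libraries of each group (log axes, which differ between panels), and bars mark means. LPS libraries lie lowest in most panels, Col1a1 is highest in LPS, and Per3 is highest in NNK_LPS.

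Lists of vascular and stromal genes differed in their share of calls, which over all genes was 25.1% (14.4% lower and 10.7% higher). In number, endothelial calls lay near that 25.1%, but all were higher, where the share over all genes was 10.7%. Their count was unstable, as given below, and is not read as a trait of the list. Of endothelial markers 0 of 22 tested genes were lower and 5 higher, and the median interaction was 0.59, from medians of -1.02 in lung and -0.43 in tumours. Ednrb, the endothelin B receptor, was at 92.1, 110.3 and 116 CPM in Control, 72.8, 85.1 and 81.9 in NNK, 27.0, 21.1 and 13.9 in LPS and 40.0, 45.3 and 67.1 in NNK_LPS. LPS libraries were the lowest and NNK_LPS libraries lay between LPS and NNK without overlap, with 1.71 ± 0.43 (adjusted p = 0.00816). Emcn (endomucin) and Aqp1 (a water channel) were at 1.03 ± 0.25 (adjusted p = 0.00590) and 0.95 ± 0.27 (adjusted p = 0.0150), and both missed the threshold with the term for library set (adjusted p = 0.0914 and 0.0536). The count was 3 without any of Control 1, Control 3, NNK 1, NNK 3, the 3 LPS libraries or NNK_LPS 3, and 1 with the term for library set. Of fibroblast markers 3 of 18 tested genes were lower and 7 higher, and the median interaction was 0.55, from medians of -0.97 in lung and -0.18 in tumours. Inmt, an indole methyltransferase of lung fibroblasts, was at 1885, 1611 and 1547 CPM in Control, 759.9, 999.7 and 877 in NNK, 421, 307 and 251 in LPS and 615, 694 and 991 in NNK_LPS; LPS was lowest, Control highest, and NNK_LPS overlapped NNK, with 2.17 ± 0.28 (adjusted p = 4.56e-05). The 3 lower genes were fibrillar collagens. Col1a1 was at 125, 125 and 86.4 CPM in Control, 105, 114 and 109 in NNK, 219, 259 and 406 in LPS and 110.2, 83.0 and 103 in NNK_LPS, with LPS libraries above 200 CPM and the other groups overlapping, and an interaction of -1.54 ± 0.35 (adjusted p = 0.00398). Col1a2 and Col3a1 were at -1.09 ± 0.26 and -0.92 ± 0.30. Of matrix and protease genes 10 of 20 tested genes were lower and 1 higher, and the median interaction was -0.90, from medians of 1.35 in lung and 0.01 in tumours. Timp1, an inhibitor of metalloproteinases, was at 7.05, 8.49 and 4.33 CPM in Control, 6.62, 4.58 and 4.34 in NNK, 201, 160.3 and 212 in LPS and 7.43, 7.02 and 9.79 in NNK_LPS; LPS libraries exceeded 150 CPM and no other library reached 10 CPM, with -4.21 ± 0.36 (adjusted p = 2.07e-06). The matrix count was 6 lower without Control 2 and 6 with the term for library set.

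Genes of heart, fat and blood were examined beside these results, with 10.7% of all genes tested higher. Of heart muscle markers 0 of 11 tested genes were lower and 1 higher, and the median interaction was 1.37, from medians of -2.34 in lung and -1.02 in tumours. Myh6, a myosin heavy chain of heart muscle, was at 287, 269 and 303 CPM in Control, 94.9, 143 and 71.9 in NNK, 45.1, 51.9 and 63.0 in LPS and 95.5, 69.9 and 54.7 in NNK_LPS: Control libraries were above 260 CPM and all others below 150 CPM. Its interaction of 1.93 ± 0.53 (adjusted p = 0.0145) missed the threshold with the term for library set (adjusted p = 0.114). Of adipocyte markers 0 of 9 tested genes were lower and 1 higher, and summed levels were 99.3 to 154 CPM in Control, 34.4 to 101 in NNK, 15.1 to 29.8 in LPS and 24.9 to 80.6 in NNK_LPS; the count was 3 higher without NNK 2 or NNK_LPS 2. Of 8 erythroid genes, a list made after values were seen, 4 were higher and 0 lower, and summed levels were 4762 to 9599 CPM in Control, 2061 to 3038 in NNK, 1271 to 2449 in LPS and 2169.5 to 5218 in NNK_LPS. Hbb-bt, a beta globin with a near-identical copy, had an interaction of 2.89 ± 0.80 (adjusted p = 0.0147), which missed the threshold with the term for library set (adjusted p = 0.126), as did all 4. The erythroid count was 1 without Control 1, NNK 1, NNK 2, LPS 2 or NNK_LPS 3 and 2 without LPS 1. The part of blood, fat and heart tissue in other results was not tested.

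Programmes inside cells were also examined, beside shares of 14.4% lower and 10.7% higher over all genes tested. Of immediate early genes, induced within minutes of a stimulus, 9 of 16 tested genes were lower and 0 higher, and the median interaction was -1.30, from medians of 1.38 in lung and -0.13 in tumours. Egr1 was at 12.0, 16.9 and 12.3 CPM in Control, 20.1, 36.2 and 58.7 in NNK, 80.0, 54.3 and 86.2 in LPS and 21.7, 31.0 and 18.8 in NNK_LPS; NNK_LPS overlapped NNK, LPS libraries reached the highest values and NNK 3 exceeded LPS 2. The interaction was -3.11 ± 0.50 (adjusted p = 0.000318). Junb, of the AP-1 family, was at -2.20 ± 0.31. Of RAS-MAPK targets 6 of 19 tested genes were lower and 0 higher, and the median interaction was -0.37, from medians of 0.58 in lung and -0.01 in tumours. Ereg (epiregulin, an EGFR ligand) was at 0.379, 0.255 and 0.258 CPM in Control, 12.0, 1.71 and 7.43 in NNK, 6.24, 5.94 and 11.6 in LPS and 15.4, 19.8 and 5.29 in NNK_LPS. Tumour libraries with and without LPS overlapped LPS lung, and only Control was below 0.5 CPM; the interaction was -3.79 ± 1.04 (adjusted p = 0.0136). Spry1, Spry2 and Etv5 were not called (0.71, 0.07 and 0.28, adjusted p = 0.112, 0.846 and 0.428). Of p53 targets 5 of 16 tested genes were lower and 1 higher, and the median interaction was -0.30, from medians of 0.51 in lung and 0.05 in tumours. Gdf15, a stress cytokine, was at -1.84 ± 0.31 and Bax, a pore-forming cell death protein, at -0.50 ± 0.12; Perp, a desmosomal protein, was the higher gene at 1.35 ± 0.26, and Cdkn1a was not called (-0.75, adjusted p = 0.317).

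Metabolic and stress lists were mixed, against 14.4% lower and 10.7% higher over all genes tested. Of glycolysis and hypoxia genes 11 of 19 tested genes were lower and 1 higher, and the median interaction was -0.87, from medians of 1.17 in lung and 0.27 in tumours. Slc16a3 (MCT4, the lactate exporter) was at 12.1, 10.9 and 14.1 CPM in Control, 21.1, 19.2 and 14.4 in NNK, 66.6, 49.3 and 68.1 in LPS and 18.8, 20.5 and 12.9 in NNK_LPS; LPS libraries were above 49 CPM and NNK_LPS overlapped NNK, with -2.38 ± 0.32 (adjusted p = 6.8e-05). The enzymes Pgk1 and Eno1 were at -0.91 ± 0.15 and -1.08 ± 0.16, and Ldha was not called (-0.21, adjusted p = 0.576). Of NRF2 targets 7 of 16 tested genes were lower and 2 higher, and the median interaction was -0.33, from medians of 0.33 in lung and -0.03 in tumours. Slc7a11, the cystine importer, was at 4.93, 5.49 and 10.9 CPM in Control, 18.7, 14.4 and 11.4 in NNK, 129, 117 and 129.9 in LPS and 18.6, 13.6 and 11.2 in NNK_LPS; NNK and NNK_LPS overlapped, and the interaction was -4.16 ± 0.52 (adjusted p = 3.75e-05). Hmox1, the haem oxygenase, was at -1.69 ± 0.17, whereas Nqo1 and Gstm1 were higher, at 1.19 ± 0.35 and 1.40 ± 0.20. Of unfolded protein response genes 9 of 16 tested genes were lower and 0 higher, and the median interaction was -0.63, from medians of 0.83 in lung and 0.10 in tumours. Sdf2l1, an endoplasmic reticulum chaperone partner, was at 17.7, 15.6 and 11.9 CPM in Control, 20.1, 14.1 and 18.2 in NNK, 67.1, 80.8 and 102 in LPS and 24.7, 15.7 and 19.1 in NNK_LPS, high in LPS alone, with -2.29 ± 0.29 (adjusted p = 3.42e-05), and Calr (calreticulin) was at -1.39 ± 0.14. Of lipid and cholesterol synthesis genes 0 of 18 tested genes were lower and 1 higher, a share below the 25.1% of all genes, with 2 higher without NNK_LPS 1 and 1 lower without LPS 2. Of cell cycle genes 3 of 30 tested genes were lower and 0 higher (6 lower without Control 3), and the median interaction was 0.15, from medians of -0.09 in lung and 0.09 in tumours. The proliferation markers Mki67 and Top2a were not called (-0.41 and 0.13, adjusted p = 0.320 and 0.805).

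Clock genes differed in a pattern unlike the immune lists. 1 of 14 tested genes was lower and 6 higher, and the median interaction was 0.78, from medians of -0.67 in lung and 0.50 in tumours. Per3 was at 16.5, 17.7 and 30.5 CPM in Control, 27.3, 34.2 and 22.3 in NNK, 9.03, 11.1 and 10.2 in LPS and 64.7, 92.8 and 45.0 in NNK_LPS. NNK_LPS libraries were above all others and LPS libraries below all others. Its interaction was 2.36 ± 0.58 (adjusted p = 0.00731), from -1.09 in lung and 1.27 in tumours, where the change was not called (adjusted p = 0.140). Hlf, an output factor of the clock, was at 8.04, 7.79 and 11.2 CPM in Control, 7.15, 9.02 and 5.39 in NNK, 2.51, 3.96 and 3.70 in LPS and 10.5, 12.0 and 8.76 in NNK_LPS, with LPS lowest and 1.94 ± 0.52 (adjusted p = 0.0119), and missed the threshold with the term for library set (adjusted p = 0.0593). With that term 1 clock gene was higher, and without NNK 3, LPS 3 or NNK_LPS 2 there were 3. The time of day of sampling is not given in the labels, and its part was not tested.

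Both arms called the same direction for 4 genes, all with the larger change in lung. Ly6c2, a surface protein of inflammatory monocytes, was at 16.8, 15.7 and 21.0 CPM in Control, 25.2, 23.2 and 27.9 in NNK, 118, 116 and 114 in LPS and 72.4, 55.0 and 75.6 in NNK_LPS. The groups ran from Control through NNK and NNK_LPS to LPS with no overlap, and the changes were 2.70 in lung and 1.41 in tumours (adjusted p = 0.00417), with an interaction of -1.29 ± 0.24 (adjusted p = 0.00103). Cd63, a tetraspanin of late endosomes, was at 158, 152 and 152 CPM in Control, 181, 169 and 188 in NNK, 378, 424 and 486 in LPS and 270.2, 278 and 243 in NNK_LPS, in the same order of groups, with changes of 1.48 and 0.56 and an interaction of -0.92 ± 0.14 (adjusted p = 0.000121). Clec4a2, a C-type lectin of myeloid cells, changed by 2.10 and 0.93, with -1.17 ± 0.23 (adjusted p = 0.00150). H2-T22, a non-classical class I gene, changed by 2.08 and 1.21, with -0.87 ± 0.31 (adjusted p = 0.0464). The tumour-arm calls of these genes were not kept with the term for library set, where the arm called 0 genes. The interaction of H2-T22 was not called without Control 1, Control 2, NNK 2, NNK 3, LPS 3 or any NNK_LPS library, with adjusted p of 0.0588 to 0.138.

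Among the 3955 genes, 3 were called in tumours and not in lung. With the term for library set the tumour arm called 0 genes, so none of these tumour calls was kept. Kazn, a protein of cell junctions, was at 25.7, 24.96 and 27.1 CPM in Control, 32.6, 37.6 and 31.7 in NNK, 24.4, 23.1 and 25.2 in LPS and 24.0, 21.3 and 25.9 in NNK_LPS, with NNK libraries above all others, and its interaction was -0.42 ± 0.11 (adjusted p = 0.0129). The interaction of Kazn was not called in 1 alternative setting. Ypel5 changed by 0.14 in lung (not called) and by 0.46 in tumours. Its interaction was 0.32 ± 0.10 (adjusted p = 0.0246) and missed the threshold with the term for library set (adjusted p = 0.102) and without Control 2, Control 3, NNK 1, NNK 2, LPS 1 or NNK_LPS 2 (adjusted p of 0.0512 to 0.0741). The gene mt-Atp8 was the other, at 60.0, 63.8 and 59.6 CPM in Control, 43.6, 50.1 and 47.0 in NNK, 44.4, 46.4 and 166 in LPS and 184, 235 and 193 in NNK_LPS. It is high in LPS 3 and NNK_LPS, the libraries of the second set, and was used to define the sets, so it is no result on LPS. Its call was lost without Control 2, NNK 1, NNK 3, LPS 1, LPS 2 or NNK_LPS 2 (adjusted p of 0.0523 to 0.0617). No gene was called in opposite directions in lung and tumours, and none called in both arms changed more in tumours. Among the 163 genes called in neither arm, 87 were higher and 76 lower. Slc28a1, a nucleoside transporter, was at 18.5, 1.34 and 0.194 CPM in Control, 23.5, 0 and 47.1 in NNK, 47.7, 64.4 and 36.1 in LPS and 0, 0.197 and 0 in NNK_LPS, which spread widely within Control and NNK. Summed counts were 268 in Control, 1067 in NNK, 2146 in LPS and 3 in NNK_LPS, so no fold is given.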

How the data were processed

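RNA was sequenced with the TruSeq RNA kit, version 2, per the labels' protocols. The authors deposited a table of whole-number counts per gene symbol, with 38924 symbols, of which 16756 were 0 everywhere, aligned to mm10 per the submitters' processing notes. Not given in the sources used here are the aligner, counting tool, annotation and strandedness, so overlapping genes and close paralogs are uncertain. Counts were TMM-scaled and filtered (filterByExpr, minimum count of 10, 15770 genes) in R 4.3.3 with edgeR 4.0.16. A robust quasi-likelihood model of all 7 groups (21 libraries, 14 residual degrees of freedom) gave each contrast, with Benjamini-Hochberg adjustment over all genes and calls at an adjusted p under 0.05. The fit was tested on simulated data. Library sets were read from mt-Atp8 and mt-Atp6 and are not labelled. The comparison, members and lists were chosen with earlier results of these data known. Named genes, 165 in all and not all printed, were called genes of at least 5 CPM in a group: the 12 highest and 12 lowest, the 6 largest of each response pattern, up to 4 of each list with the opposite member of smallest adjusted p, and the 10 highest and 10 lowest also called with the set term. Other list members are given by value. Coordinates are those of GENCODE vM21 on GRCm38 (mm10), and promoters are from RefSeq. Alternatives were other size factors, no filter, DESeq2 1.42.0, the 12 libraries alone, a replicate block, a set term, thinned counts and leaving out each library; the set term on the 12 libraries alone was added after seeing the data.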

Additional observations from a re-analysis of the deposited data

Results flagged for a closer look

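The interaction over all genes is itself a difference of effects between tissues, and it was called for 3955 genes. The tests of the difference are those of the edgeR interaction term. No explanation was weighed.

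Among genes of at least 5 CPM in a group, the 12 most negative log2 interactions included those of Irg1 at -10.89, Ubd at -10.19, Orm2 at -8.98, Gpr84 at -8.96, Ly6i at -8.55, Saa3 at -8.42, Il1f9 at -8.35, Cxcl3 at -8.27 and Cxcl9 at -8.03. The other 3 were Cxcl11, Slc28a1 and Mrgpra2b, with fitted values of -11.64, -11.34 and -9.90. They rest on groups with 0 to 3 counts, so these values depend on the prior count, are not read as folds or bounds, and give them no place in the order. Orm2 and Gpr84 had summed counts of 4 each in Control, so the size of their interactions and their place in the order are uncertain too. Il1f9 was at 0.228, 0.575 and 1.16 CPM in Control, 5.08, 5.60 and 0.789 in NNK, 81.9, 69.0 and 69.6 in LPS and 2.14, 1.05 and 0.626 in NNK_LPS, where 2 NNK libraries stood above all NNK_LPS libraries.

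The 12 most positive included those of Fabp1 at 4.68, Cyp4a12b at 4.52, Cyp2e1 at 3.52, Bex2 at 3.24, Asgr1 at 2.98, Dbp at 2.96, Fabp3 at 2.95, Cd207 at 2.90, Hbb-bt at 2.89, Hpcal4 at 2.80 and Chdh at 2.70. The other was Cd209b, with a fitted value of 4.32 that rests on 2 counts in LPS and is likewise no fold. Bex2 was at 16.8, 17.0 and 9.94 CPM in Control, 31.4, 23.0 and 31.7 in NNK, 2.01, 1.09 and 1.48 in LPS and 27.2, 30.5 and 27.8 in NNK_LPS; LPS libraries were the lowest, and both tumour groups lay above Control. Asgr1, a lectin known from hepatocytes, was at 8.72, 5.68 and 5.81 CPM in Control, 2.14, 2.87 and 3.94 in NNK, 0.573, 0.205 and 0.202 in LPS and 0.755, 0.722 and 1.93 in NNK_LPS, with NNK_LPS below NNK. Dbp, an output gene of the clock, was at 7.74, 8.49 and 36.2 CPM in Control, 15.1, 38.1 and 11.5 in NNK, 7.60, 6.01 and 8.69 in LPS and 75.0, 84.6 and 53.3 in NNK_LPS. Its NNK_LPS libraries were above all others, and Control 3 and NNK 2 stood apart from their groups. Dbp, Hbb-bt and Chdh missed the threshold with the term for library set (adjusted p = 0.148, 0.126 and 0.137). Dbp also missed it without Control 3, NNK 1, NNK 3, any LPS library, NNK_LPS 1 or NNK_LPS 2 (adjusted p of 0.0521 to 0.158). Chdh missed it without Control 1, Control 2, NNK 2, NNK 3, any LPS library or NNK_LPS 2 (adjusted p of 0.0559 to 0.104).

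Of the 15 genes called in the tumour arm, 7 were also called in the interaction, with values of -1.29 for Ly6c2, -1.17 for Clec4a2, -0.92 for Cd63, -0.87 for H2-T22, -0.42 for Kazn, 1.64 for mt-Atp8 and 0.32 for Ypel5. The gene mt-Atp8 defines the library sets and is no result on LPS.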

How the results depend on the processing

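Leaving out each library gave 3117 (without LPS 3) to 3870 genes called in the interaction, 6613 to 7967 in lung and 0 to 223 in tumours. Higher genes made up 38.5% to 44.1% of interaction calls over all settings, against 42.7%. The count in tumours was 15, but 492 with DESeq2, 353 in the fit to the 12 libraries alone, 37 with the replicate block, 23 in thinned counts, 0 with the term for library set, and 1 with that term on the 12 libraries alone; the cause was not tested. Interaction counts were 3918 with relative log expression, 3425 with no filter, 4253 with DESeq2, 4018 for the 12 libraries, 4080 with the replicate block, 3803 thinned and 3005 with the set term. Libraries were numbered by their order within each group, which is not always the number that follows the group name in the title. Deviations of libraries with the same order number had r from -0.124 to 0.290 over 18 pairs, 4 above 0.1. Of 12 libraries, 5 correlated best with a library of their own order number. Deviations from means of 3 libraries cannot exclude pairing, and the numbers in the titles were not compared. Of 165 named genes, 144 were also called with the set term and none reversed under any setting. Single calls in the alveolar type 1, club, clock and glycolysis lists rested on Pdpn, Bpifb1, Npas2 and Vegfa, each lost without at least 8 single libraries; with the set term their adjusted p were 0.0537, 0.0742, 0.113 and 0.0705. Of 1720 list counts over settings, 1567 stayed within 1.5 times. Depth limits genes at a few counts in a group, such as Cxcl11 and Cd209b.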
